A study of Mus musculus with 15 samples.

Results

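The genes followed here in stretched mouse podocytes are 10 of the immediate early class: the transcription factors Egr1, Egr2, Egr3, Fos, Fosb, Junb, Atf3 and Nr4a1, the nuclear protein Ier2, and the phosphatase gene Dusp1. They are 10 of the 55416 genes in the count table, all 10 were found by symbol, and all 10 passed the low-count filter in every comparison. The genes were chosen because of how they moved in these cultures, so their stretch contrasts below are a description, without a p-value.

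Immediate early genes are switched on within minutes of a stimulus by factors already present in the cell, above all ternary complex factors with SRF, and CREB, downstream of ERK, p38 and calcium signals. Their transcripts are short-lived, and the response is normally transient. Their protein products, the EGR zinc-finger proteins, the FOS and JUN partners of the AP-1 complex and the NR4A orphan receptors, bind DNA and change the next set of genes. DUSP1 dephosphorylates p38, JNK and ERK and so dampens the signals that induce it. In the kidney, podocytes wrap the glomerular capillaries and bear the filtration pressure, and mechanical stretch is a common culture model of glomerular hypertension.

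The cells were SVI, a conditionally immortalised mouse podocyte line, differentiated and seeded on flexible silicone membranes whose centre was moved up and down by pressure. In experiment 1, 6 low-stretch cultures (treatment 5-6 mm in the labels) were set beside 3 unstretched cultures, and in experiment 2, 3 high-stretch cultures (7-8 mm) beside another 3 unstretched ones. All 15 cultures are of the same line, and the duration of stretch and the frequency are not given in the sources used here. Nothing in the labels says that replicates were separate platings, so p-values measure the spread between these cultures, which may be technical. The amplitude and the experiment go together: low and high stretch can be compared only through each experiment's own unstretched cultures.

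Libraries held between 172211836 and 396658285 assigned counts. The experiments lay far apart on the first principal component (70.2% of the variance), on which unstretched replicate 3 of experiment 2 scored 32.5, against 121.4 and 162.6 for the other 2 unstretched cultures there. Because that culture stands apart, high-stretch fold changes and calls are given with and without it. Levels in CPM are counts scaled to library size, with TMM factors over all 15 cultures. Synaptopodin (Synpo), a podocyte actin-associated protein, was at 256 to 837 CPM over all cultures, whereas nephrin (Nphs1) averaged at most 0.683 CPM in any group, so this defining slit diaphragm marker was near 0. The podocyte transcription factor gene Wt1 averaged 5.05 CPM unstretched and 2.28 CPM under low stretch (not called), and 2.81 and 0.545 CPM in experiment 2 (called lower by edgeR, adjusted p = 0.0311, and 0.00358 without unstretched replicate 3), and Podxl was not called in either comparison. The 12 podocyte markers summed to 1310 to 1560 CPM under low stretch against 1210 to 1340 CPM, and to 2190 to 2900 against 1650 to 2650 CPM in experiment 2. Endothelial markers summed to at most 0.227 CPM in any culture, and of 6 tubule markers only Lrp2 averaged above 1 CPM. The tubule list summed to 474 to 757 CPM under low stretch and 926 to 1090 CPM in the unstretched cultures beside it, and to 249 to 425 and 317 to 667 CPM in experiment 2, and Lrp2 was called lower under low stretch. The mesangial list, carried mainly by Pdgfrb, summed to 56.3 to 77 CPM under low stretch and 87.4 to 105 CPM beside it, and to 101 to 127 and 123 to 163 CPM in experiment 2, with Pdgfrb called lower under low stretch. The part of these markers in the results was not tested. In bulk cultures, fewer cells with a transcript and less transcript per cell cannot be told apart.

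The promoters of 7 of the 10 genes were in the RefSeq table used (build GRCm38.p6, 250 bases before to 50 after the start), and 3 are shown because the results turn on them: Egr2 and Fos, lower in the stretched cultures, and Dusp1, higher. Each line gives the bases from -250 to -51 relative to the RefSeq start, on the gene's own strand. Capitals mark a CArG box, bound by SRF (CC, 6 of A or T, GG), and the CRE core TGACG, read on both strands as TGACG or CGTCA, alone or inside the full CRE TGACGTCA, to which CREB and ATF proteins bind.
Egr2, chr10:67537619-67537818, + strand: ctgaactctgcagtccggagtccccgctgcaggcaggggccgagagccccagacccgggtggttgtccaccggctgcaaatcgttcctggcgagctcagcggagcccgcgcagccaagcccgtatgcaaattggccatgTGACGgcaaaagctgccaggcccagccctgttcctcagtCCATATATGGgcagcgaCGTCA
Fos, chr12:85473640-85473839, + strand: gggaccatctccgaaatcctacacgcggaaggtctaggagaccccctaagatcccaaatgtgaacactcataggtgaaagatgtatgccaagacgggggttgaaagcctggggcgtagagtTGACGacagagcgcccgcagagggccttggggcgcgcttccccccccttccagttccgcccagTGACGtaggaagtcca
Dusp1, chr17:26508523-26508722, - strand: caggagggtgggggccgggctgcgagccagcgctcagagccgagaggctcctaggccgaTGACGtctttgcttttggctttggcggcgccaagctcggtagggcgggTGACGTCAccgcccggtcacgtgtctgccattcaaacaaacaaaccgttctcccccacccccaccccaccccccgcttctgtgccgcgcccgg
The Egr2 window held a CArG box, CCATATATGG, at -72 to -63, a motif found in 1.63% of the 32851 promoters in the table. In Dusp1 a full CRE lay at -143 to -136 (1.79% of promoters), and neither motif occurred in the other 5 windows. All 7 windows, those of Fosb, Junb, Atf3 and Nr4a1 included, held at least 1 CRE core, which 20.8% of all promoters held. Nr4a1 had 4 of them, at -233, -213, -69 and -40, and an ETS site (CCGGAA, in 14.9% of promoters). No AP-1 site (TGACTCA, in 5.2% of promoters) and no EGR site (GCGTGGGCG, in 0.612%) occurred in the 7 windows. These are letter matches in short windows and say nothing about binding in these cultures. Bases further upstream than -250 were not searched, so a motif missing from a window may lie outside it. RefSeq gave 5 starts for Egr2, and the window used was that of its most abundant transcript.

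The EGR genes encode zinc-finger factors that share a GC-rich site and are held in check by the NAB corepressors. Egr1 (ENSMUSG00000038418) stood at 105.9, 189.7 and 110.7 CPM in the 3 unstretched cultures of experiment 1. It stood at 43.6, 54.0 and 65.7 CPM (lowest, median, highest of 6) under low stretch, so the groups did not overlap (7.47% of all genes tested were lower without overlap in that comparison). In experiment 2, Egr1 was at 115.6, 104 and 1060 CPM in unstretched replicates 1 to 3 and at 60.2, 72.4 and 56.1 CPM under high stretch. Every stretched culture was again below every unstretched one, and unstretched replicate 3 was 9.65 times the mean of the other 2.

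Egr2 (ENSMUSG00000037868), whose promoter carries the CArG box shown above, was at 3.55, 14.7 and 5.58 CPM without stretch and at 0.805, 0.996 and 1.35 CPM (lowest, median, highest) with low stretch. Its unstretched cultures of experiment 2 held 4.63, 3.64 and 45.1 CPM, and the high-stretch cultures 0.999, 1.05 and 0.754 CPM. The stretched cultures of both experiments thus lay in one narrow band near 1 CPM, while the unstretched cultures ranged from 3.55 to 45.1 CPM. Egr3 (ENSMUSG00000033730) showed the same order at lower counts. It was at 1.497, 9.11 and 2.65 CPM unstretched against 0.451, 0.675 and 0.744 CPM (lowest, median, highest) under low stretch. In experiment 2 Egr3 was at 1.83, 1.56 and 9.14 CPM unstretched and at 0.591, 0.376 and 0.456 CPM under high stretch.

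Fos (ENSMUSG00000021250) encodes the AP-1 partner whose induction is the textbook immediate early response. Its 3 unstretched cultures of experiment 1 were close together, at 23.3, 20.4 and 22.5 CPM, and the low-stretch cultures held 8.29, 12.3 and 14.4 CPM (lowest, median, highest). In experiment 2, unstretched replicates 1 and 2 were both at 22.6 CPM, replicate 3 at 229.4 CPM, and the high-stretch cultures at 13.3, 14.1 and 10.97 CPM. Leaving replicate 3 aside, Fos ranged from 20.4 to 23.3 CPM over the unstretched cultures of both experiments and from 8.29 to 14.4 CPM over all stretched ones.

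**Figure D1:**
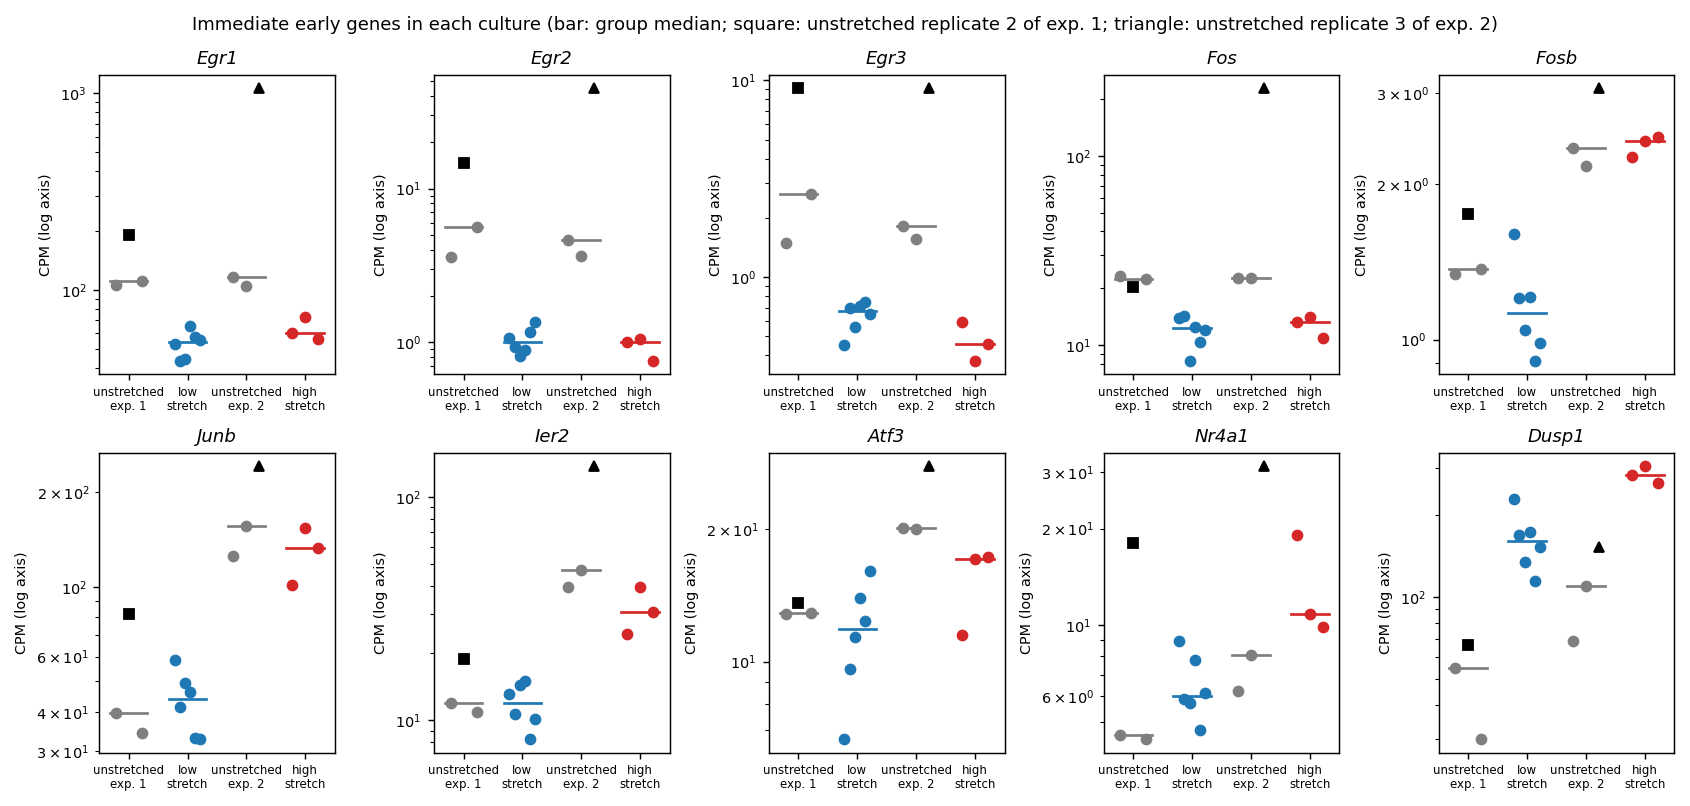
CPM on a log axis for each of the 10 genes in every culture (points), by group, with the group median as a bar; the square is unstretched replicate 2 of experiment 1 and the triangle unstretched replicate 3 of experiment 2. Egr1, Egr2, Egr3 and Fos were lower in every stretched culture than in any unstretched culture of the same experiment, Dusp1 was higher, and the triangle is the highest point of experiment 2 for 9 of the 10 genes.

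The other factors did not separate in the same way. Fosb, which encodes another FOS protein, was at 1.34, 1.76 and 1.37 CPM unstretched and 0.911 to 1.61 CPM under low stretch, and at 2.17 to 3.07 and 2.26 to 2.47 CPM in experiment 2. Junb, an AP-1 partner that can restrain c-JUN, was at 39.6, 82.2 and 34.4 CPM unstretched and 32.8 to 58.3 CPM under low stretch. In experiment 2 it was at 125.5, 156.4 and 241.2 CPM unstretched and 101.2 to 153.9 CPM under high stretch. For both genes the stretched range overlapped the unstretched range in each experiment.

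Ier2, whose product shuttles to the nucleus after growth factor stimulation, was at 11.9, 18.8 and 10.9 CPM unstretched and 8.26 to 14.96 CPM under low stretch. It was at 39.7, 47.3 and 137.3 CPM unstretched and at 24.4, 39.7 and 30.7 CPM under high stretch, so 1 high-stretch culture sat just above the lowest unstretched one. Atf3, a stress-inducible repressor of the CREB family, overlapped under low stretch (6.67 to 16.0 CPM against 12.8 to 13.6 CPM). In experiment 2 it did not overlap, at 11.5, 17.1 and 17.3 CPM stretched against 20.1, 20.0 and 27.7 CPM. There 10.7% of all genes tested were lower without overlap, and Atf3 was not called. Nr4a1, which encodes the orphan nuclear receptor NUR77, was at 4.56, 18.0 and 4.42 CPM unstretched and 4.72 to 8.91 CPM under low stretch. In experiment 2 it was at 6.25, 8.06 and 31.2 CPM unstretched and 19.1, 10.9 and 9.88 CPM under high stretch. In each experiment, Nr4a1 was higher in every stretched culture than in the 2 lower unstretched cultures and below the highest unstretched culture.

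Dusp1 (ENSMUSG00000024190) moved against the EGR genes and Fos. It was at 54.5, 66.4 and 30.0 CPM unstretched and at 114.5, 161.5 and 229.3 CPM (lowest, median, highest) under low stretch. In experiment 2 it was at 69.1, 109.7 and 152.8 CPM unstretched and 283.1, 303.4 and 264.6 CPM under high stretch. No stretched culture overlapped an unstretched one in either experiment (7.81% and 9.97% of genes tested were higher without overlap). The annotated span of Dusp1 (56539 bases in GENCODE M21) overlaps Ergic1 on the opposite strand and that of Junb overlaps Prdx2, and whether counting used strand is not given in the sources used here. In the transcript table the 2 most abundant Dusp1 transcripts had the same direction.

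Low stretch against its own unstretched cultures gave log2 fold changes of -1.36 (SE 0.19) for Egr1, -2.96 (SE 0.36) for Egr2, -2.82 (SE 0.44) for Egr3, -0.89 (SE 0.15) for Fos and 1.68 (SE 0.27) for Dusp1. On the linear scale Egr2 was 7.78-fold lower, Egr3 7.05-fold, Egr1 2.57-fold and Fos 1.86-fold, and Dusp1 3.21-fold higher. Those 5 genes were the ones called by edgeR's quasi-likelihood test (Benjamini-Hochberg adjusted p under 0.05 over all genes tested), 4 lower and 1 higher. The background was 3.6% of 21672 genes called lower and 1.85% called higher, but the members were chosen on this contrast and nothing is read from their count. The other 5 had smaller log2 differences, of -0.37 (SE 0.19) for Fosb, -0.27 (SE 0.27) for Junb, -0.23 (SE 0.22) for Ier2, -0.17 (SE 0.22) for Atf3 and -0.48 (SE 0.41) for Nr4a1. Over the 10 genes the median log2 fold change was -0.43, beside 0.01 over all genes tested.

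For the EGR genes and Fos, high stretch gave larger differences with larger errors. The log2 fold changes were -2.77 (SE 0.87) for Egr1, -4.26 (SE 0.99) for Egr2, -3.13 (SE 0.71) for Egr3 and -2.84 (SE 0.89) for Fos, and none of these 4 was called, although their groups did not overlap (10.7% of 18524 genes were lower without overlap). Only Dusp1 was called, higher, at 1.37 (SE 0.29), with a background of 1.31% called higher and 2.16% lower. Without unstretched replicate 3 the differences of the EGR genes and Fos shrank and their errors shrank more, while the difference of Dusp1 grew. Egr1 was then at -0.75 (SE 0.17), Egr2 at -2.10 (SE 0.26), Egr3 at -1.77 (SE 0.28), Fos at -0.77 (SE 0.20) and Dusp1 at 1.72 (SE 0.21). All 5 were called, against backgrounds of 4.35% lower and 3.42% higher among 18297 genes. A further fit kept all 6 cultures, with the plate run as a block. Plate runs are a grouping made here from plate positions, and in this comparison they equal the replicate numbers. That fit called 6 of the 10: Egr1 (-1.75), Egr2 (-3.14), Egr3 (-2.64), Fos (-1.78) and Ier2 (-1.01) lower and Dusp1 (1.45) higher. The share of all genes called in that fit is not given here, and nothing is read from its count. The median over the 10 genes was -0.90 with that culture and -0.38 without it, beside -0.02 and 0.04 over all genes.

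The call of Dusp1 with all 6 cultures was close to the threshold: the number of members called went from 1 to 0 when high-stretch replicate 1, 2 or 3 or unstretched replicate 1 was left out, to 4 (the 3 EGR genes and Fos, with Dusp1 lost) without unstretched replicate 2, and to 5 without unstretched replicate 3. Dusp1 was called in 1 of these 6 fits. Apart from the fit without unstretched replicate 3, these counts stand without the share of all genes called. They show only how the calls moved. Junb (-0.42, SE 0.28), Fosb (-0.07, SE 0.23) and Nr4a1 (-0.19, SE 0.61) were not called with all cultures, and neither were Ier2 (-1.24, SE 0.47) and Atf3 (-0.56, SE 0.24). Without replicate 3, Ier2 was at -0.41 (SE 0.21), Atf3 at -0.35 (SE 0.22), Junb at -0.07 (SE 0.19), Fosb at 0.13 (SE 0.23) and Nr4a1 at 0.96 (SE 0.32), none of them called. Fosb and Nr4a1 thus changed sign with that 1 culture. For Nr4a1 the high-stretch cultures were all above the remaining 2 unstretched ones. Without that culture 18.4% of genes were higher and 21.3% lower with no overlap.

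**Figure D2:**
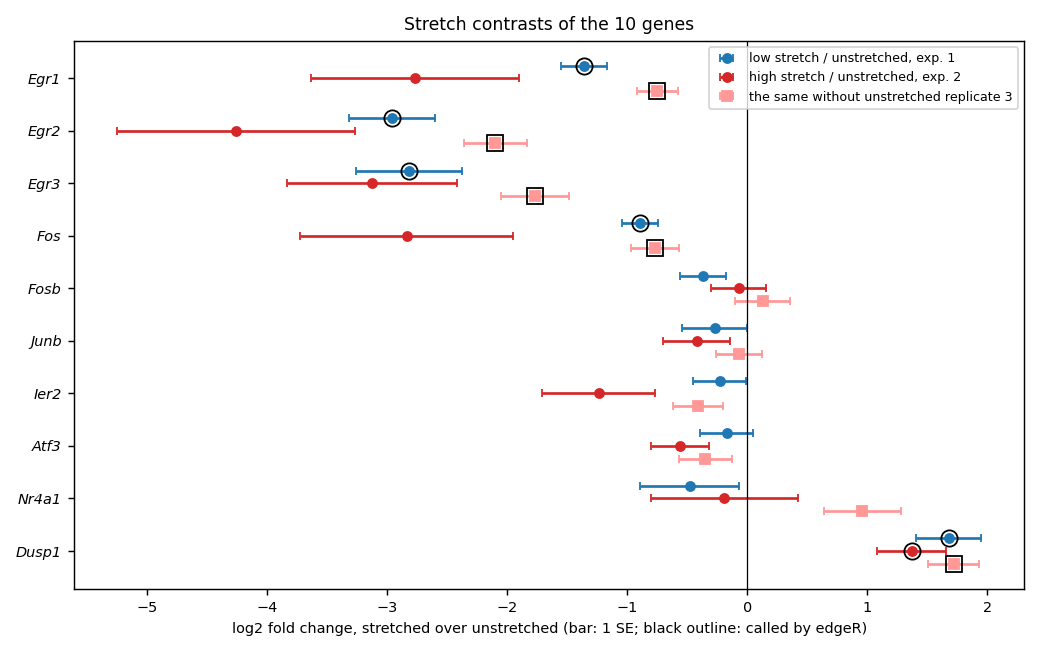
Log2 fold change with 1 SE (bars) of the 10 genes for low stretch (blue), high stretch (red) and high stretch without unstretched replicate 3 (pink squares); black outlines mark genes called by edgeR. Without that replicate the high-stretch values of Egr1 (-0.75) and Fos (-0.77) are smaller in size than their low-stretch values (-1.36 and -0.89), and Dusp1 is right of 0 throughout.

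Sample descriptions give only a plate position for each culture, and the positions form an unbroken series. The series was divided here into 6 runs of neighbours, each with 1 unstretched culture beside 2 low-stretch or 1 high-stretch cultures. The labels name no such runs. Set against the unstretched culture of its own run, Egr1, Egr2, Egr3 and Fos were lower in 6 of 6 low-stretch and 3 of 3 high-stretch cultures. Dusp1 was higher in all 9 of these ratios, by 1.02 to 2.36 on the log2 scale under low stretch and by 0.79 to 2.04 under high stretch. The groups of these genes did not overlap in either experiment, so the signs were fixed in advance and only the sizes are new. The 2 low-stretch cultures of a run also share 1 unstretched culture, so their ratios are not separate. For Egr2 the log2 ratios fell into separate sets: -4.19 and -4.06 in run 2, -5.90 in run 6, and -2.27 to -1.74 in the other runs. Fos was more even in experiment 1, at -1.30 to -0.70, with -4.39 in run 6 against -0.76 and -0.69 in runs 4 and 5. Nr4a1 went both ways, below 0 in runs 2 and 6 (-1.66, -1.22 and -1.66) and above 0 in the other 6 cultures, by up to 1.61. Runs 2 and 6 are those of the 2 unstretched cultures with the highest EGR levels.

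**Figure D3:**
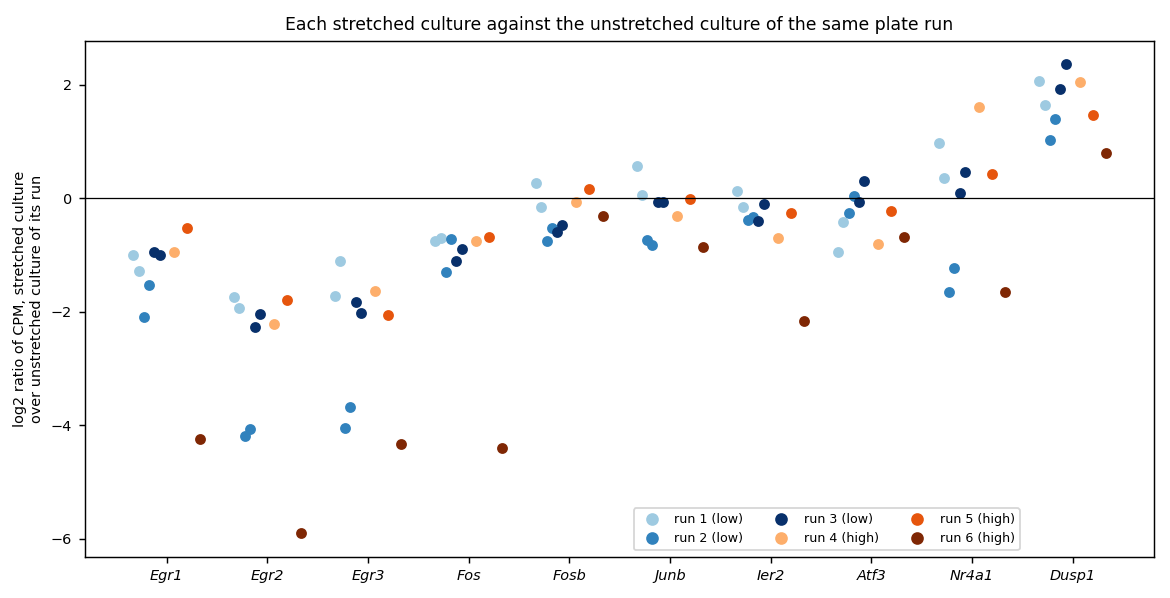
Log2 ratio of CPM between each stretched culture and the unstretched culture of its plate run (y axis) for the 10 genes, coloured by run. Egr1, Egr2, Egr3 and Fos lie below 0 and Dusp1 above 0 in all 9 ratios, and runs 2 and 6 lie lowest for Egr2, Egr3 and Nr4a1.

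The spread among unstretched cultures came largely from 1 culture in each experiment for the EGR genes and Nr4a1. In experiment 1, unstretched replicate 2 was 4.40 times the mean of the other 2 for Egr3, 4.02 times for Nr4a1, 3.22 times for Egr2, 2.22 times for Junb and 1.75 times for Egr1, but 0.889 times for Fos. It held the highest level of the 9 cultures for 7 of the 10 genes and for 5 of 31 other immediate early genes (16.1%), where 7.07% of all genes tested were highest in that culture. In experiment 2, unstretched replicate 3 was 10.9 times the mean of the other 2 for Egr2, 10.1 times for Fos, 9.65 times for Egr1, 5.39 times for Egr3, 4.37 times for Nr4a1 and 3.16 times for Ier2. Fosb, Atf3, Junb and Dusp1 differed less there, by 1.36 to 1.71 times. That culture was the highest of 6 for 9 of the 10 genes (all but Dusp1), where 29.7% of all genes tested were. Of 31 other immediate early genes tested, 9 were highest there, a share of 29%, close to that of all genes. The 10 genes were chosen on contrasts that include these 2 unstretched cultures. A gene lower in every stretched culture also has its highest value in an unstretched one. The counts of 7 and 9 of the 10 are therefore a description, and nothing is read from them. Fos was thus high in 1 of the 2 cultures and not in the other, while the 3 EGR genes and Nr4a1 were high in both. Leaving out run 2 as a whole (a choice made after these values were seen), Egr1 was at -1.05, Egr2 at -2.01, Egr3 at -1.69 and Fos at -0.84 under low stretch, all 4 still called, and Dusp1, at 1.98 (SE 0.34), was no longer called. Only 0.666% of all genes were called lower in that smaller fit and 0.201% higher.

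Across the 15 cultures, centred within each experiment, Egr1 followed the mean profile of the other 9 genes with a Pearson r of 0.918, Ier2 with 0.905, Fos with 0.836, Egr2 with 0.831 and Egr3 with 0.792. Atf3 was at 0.377 and Dusp1 at -0.375. These values rest largely on the 2 unstretched cultures just described: over the other 13 cultures r was 0.723 for Ier2, 0.622 for Fos, 0.574 for Egr1, 0.308 for Egr2 and 0.173 for Egr3, and -0.595 for Dusp1. Nr4a1 went from 0.653 to -0.325 and Atf3 to -0.187. Among 12952 genes with a mean of at least 1 CPM, the 5 whose profile was most like the mean profile of the 10 were Btg2 (r = 0.926, rho = 0.661), Zfp36 (r = 0.890, rho = 0.896), Fzd1 (0.827), Ppp1r9a (0.821) and Plch1 (0.821). Btg2, an antiproliferative gene, and Zfp36, whose product tristetraprolin degrades AU-rich messages, belong to the immediate early class themselves. Without those 2 cultures r was 0.877 for Zfp36, 0.628 for Btg2 and 0.402 to 0.461 for the other 3. All these points share libraries and groups, and no p-value is given.

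Between the unstretched cultures of the 2 experiments, Ier2, Junb, Dusp1, Atf3 and Fosb were higher in experiment 2, while the EGR genes, Fos and Nr4a1 were not called. The same cultures served as baselines when the genes were chosen, so these values too are given without a p-value. The log2 difference was 2.41 (SE 0.48) for Ier2, 1.73 (SE 0.38) for Junb, 1.12 (SE 0.36) for Dusp1, 0.77 (SE 0.19) for Atf3 and 0.75 (SE 0.24) for Fosb. These 5 genes were higher in all 3 unstretched cultures of experiment 2 than in any of experiment 1. They were called by edgeR, beside a background of 29.7% of 20707 genes called higher and 62.5% called in either direction, and 35.2% of genes were higher without overlap. Not called were Fos (2.03, SE 0.83), Egr1 (1.63, SE 0.83), Egr2 (1.15, SE 0.94), Nr4a1 (0.73, SE 0.72) and Egr3 (-0.09, SE 0.81). Without unstretched replicate 3 of experiment 2, Ier2 (1.58), Junb (1.37), Atf3 (0.56) and Fosb (0.54) stayed called, beside 33.2% of genes called higher, and Dusp1 (0.76) did not. Fos then differed by -0.02 (SE 0.11). Leaving out unstretched replicate 1 or 3 of experiment 1 reduced the 5 calls to 3. Experiment and plate position cannot be told apart in this contrast.

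The difference of the 2 stretch effects was fitted over all genes. Of 22015 genes, 0 were called by edgeR and 0 by DESeq2, and 547 had an unadjusted p under 0.05. A fit with the plate run as a block called 3 genes, none of them among the 10. Because the difference is built from the contrasts on which the 10 genes were chosen, their values are a description. High minus low was -1.95 (SE 0.81) for Fos, -1.41 (SE 0.80) for Egr1, -1.31 (SE 0.94) for Egr2, -0.34 (SE 0.82) for Egr3 and -0.33 (SE 0.40) for Dusp1. Without unstretched replicate 3 of experiment 2, 0 genes were called and 2154 had an unadjusted p under 0.05, and the difference was 0.61 for Egr1, 0.86 for Egr2, 1.04 for Egr3, 0.13 for Fos, 0.05 for Dusp1 and 1.44 for Nr4a1. The first 5 of these thus changed sign with that culture, and equal effects are not shown.

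Levels between genes can be set in order only per length, for which TPM (a length-adjusted abundance) was summed per gene. Under low stretch Dusp1 was highest at 181.6 ± 44.1 TPM (SD, n = 6), then Junb at 46.9 ± 9.70, Egr1 at 31.3 ± 4.81, Ier2 at 15.7 ± 2.90, Fos at 12.7 ± 2.86, Atf3 at 11.3 ± 3.24 and Nr4a1 at 5.09 ± 1.14. Egr2, Fosb and Egr3 were below 1 TPM, at 0.644, 0.636 and 0.318. Ier2, Fos and Atf3 did not differ beyond their spread, nor did Egr2 and Fosb. In the unstretched cultures of experiment 1, Egr1 (86.3 ± 29.0 TPM, n = 3) was above Junb (61.1 ± 30.2) and Dusp1 (60.0 ± 21.6), with overlapping ranges. Under high stretch Dusp1 stood at 199.3 ± 27.4 TPM (n = 3), Junb at 93.8 ± 8.73, Ier2 at 27.9 ± 3.37 and Egr1 at 21.6, 24.98 and 26.95 in its 3 cultures. In the unstretched cultures of experiment 2 the means were carried by replicate 3, with Egr1 at 35.3, 43.6 and 567.0 TPM (lowest, median, highest).

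**Figure D4:**
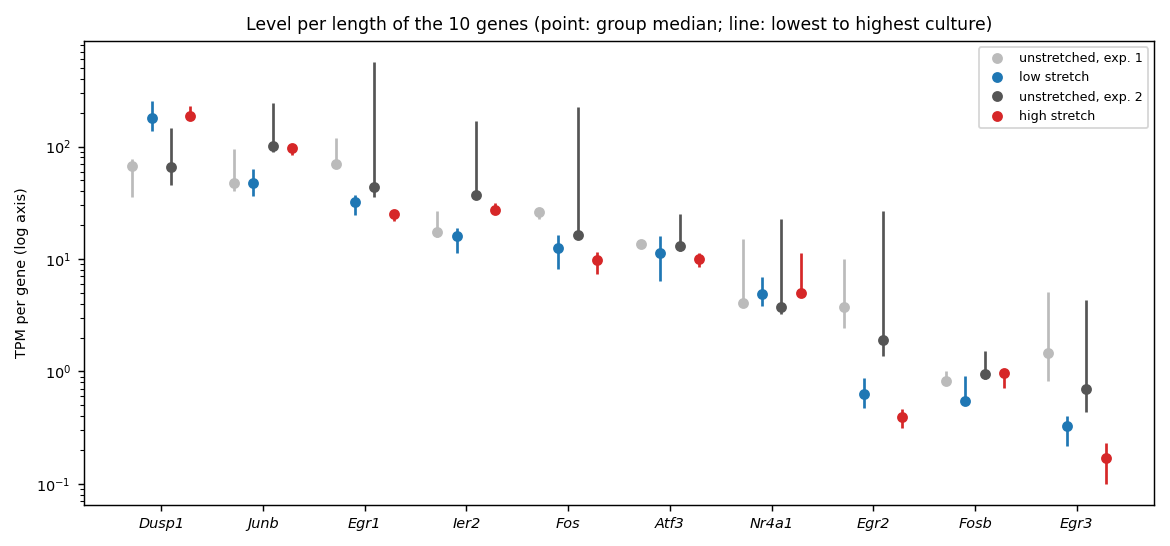
Summed TPM per gene on a log axis, with the group median (point) and the lowest to highest culture (line), for the 4 groups. Dusp1 has the highest median in both stretched groups, Egr2 and Egr3 fall below 1 TPM there, and the long lines belong to the unstretched groups.

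The study's question was splicing, and the deposited transcript table allows each gene to be split. Egr1-202 carried 92.7% of Egr1 under low stretch and 92.5% without it, and 88.1% and 86.2% in experiment 2. Junb-201, Ier2-201 and Atf3-201 each carried at least 99.5% of their gene in every group. Fos-201 carried 78.1 to 84.8% in the low-stretch cultures and 79.6 to 83.7% in their unstretched ones, and 71.5 to 87.0% and 68.6 to 82.2% in experiment 2. For Egr1 and Fos the ranges of stretched and unstretched cultures overlapped in each experiment. Dusp1 was split mainly between 2 coding transcripts. Dusp1-202 took 48.3% ± 8.59 (SD, n = 6) under low stretch and 45.7 to 57.1% in the 3 unstretched cultures, but 77.1% ± 10.7 and 82.8% ± 8.94 (n = 3 each) in experiment 2. Both transcripts were higher with stretch, Dusp1-202 at 88.4 against 30.5 TPM and Dusp1-206 at 64.6 against 20.9 TPM under low stretch, and at 152.0 against 68.3 and 32.1 against 10.8 TPM under high stretch. Its 2 transcripts annotated as retained introns took 6.19% and 9.42% under low stretch, and 6.44% and 8.13% without it. At Egr3 the share of Egr3-202, a retained-intron transcript, was 39.3% ± 18.8 under high stretch and 14.0% ± 13.6 without it (n = 3 each), ranges of 19.5 to 56.9% and 0 to 27.2% that overlap, at a gene level of 0.168 TPM. The main coding transcript Egr3-204 did not overlap there, at 43.1 to 56.2% stretched and 69.9 to 73.1% unstretched. The ranges of stretched and unstretched cultures in experiment 2 were also apart for Egr2-201 (97.2 to 100% against 90.8 to 94.9%), Egr2-202 (listed at 0 in all 3 high-stretch cultures against 3.03 to 8.27%), Fosb-204 (7.68 to 10.4% against 11.7 to 15.3%) and Nr4a1-204 (0.856 to 2.19% against 3.09 to 5.34%). Fosb-204 and Nr4a1-204 are annotated as retained introns, at 0.0834 and 0.126 TPM under high stretch. All of Egr2 was at 0.390 TPM there, and its 2 transcripts are shares of the same total. No transcript of the 10 genes was apart in experiment 1. Fosb-206, another coding transcript of Fosb beside Fosb-201, took 13.7% and 14.9% in experiment 1, and 15.2% and 24.0% in experiment 2, with SDs of 4.57 to 13.2 percentage points. Transcript shares were not tested. How many of all transcripts were apart in this way was not counted, so nothing is read from those named.

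Other immediate early genes were drawn from a list of 32, of which 31 were tested and Egr4 was too low. This list and those below were put together with earlier results of these data known, so their counts are a description. More of these immediate early genes rose than fell. Under low stretch 4 were called higher and 1 lower, with a median log2 fold change of 0.38, where 1.85% of all genes were called higher and 3.6% lower. Under low stretch Tnfaip3, the ubiquitin-editing inhibitor of NF-kB, rose by 1.37 (SE 0.35, edgeR adjusted p = 0.0473). Fosl2, a further FOS family member, rose by 0.87 (SE 0.17, adjusted p = 0.0162), Nr4a2 by 0.72 (SE 0.15, adjusted p = 0.0251) and Jun by 0.38 (SE 0.07, adjusted p = 0.0162), all by edgeR. Socs3, the feedback inhibitor of cytokine receptors, fell by 1.12 (SE 0.26, edgeR adjusted p = 0.0352). High stretch gave 7 higher and 1 lower, with a median of 0.38, beside 1.31% and 2.16% of all genes. Ccn2 rose by 2.12 (SE 0.27, edgeR adjusted p = 0.00877) and Tnfaip3 by 2.09 (SE 0.24, adjusted p = 0.00641). Klf4 (1.61), Myc (1.61), Fosl1 (1.58), Maff (1.49) and Klf2 (1.35) rose too, with edgeR adjusted p-values of 0.0186 to 0.0494. Socs3 fell by 1.68 (SE 0.28, edgeR adjusted p = 0.021). Without unstretched replicate 3 the counts were 12 higher and 2 lower, beside 3.42% and 4.35% of all genes. Calls in either direction went from 5 under low stretch to 0 without unstretched replicate 1 or 3 of experiment 1, to 2 without low-stretch replicate 4 and to 3 without low-stretch replicate 1, 2 or 3 or unstretched replicate 2. Under high stretch they went from 8 to 1, 4 and 0 without high-stretch replicate 1, 2 and 3, to 2 without unstretched replicate 1 and to 7 without unstretched replicate 2. With all cultures, within the AP-1 family the calls went both ways: Fos lower, Jun and Fosl2 higher under low stretch, and Fosl1 higher under high stretch.

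A further list held 14 genes that report or dampen signalling by ERK or related kinases, not all of them specific to ERK. They are dual-specificity phosphatases other than Dusp1, Sprouty and Spred genes, ETS factors of the Etv group, and Phlda1. Of these, 1 rose under low stretch and 3 under high stretch, and none was called lower, where 1.85% and 1.31% of all genes were called higher. The list medians were 0.40 and 0.66, beside 0.01 and -0.02 over all genes. Dusp16 rose by 0.50 (SE 0.09, edgeR adjusted p = 0.012) under low stretch. Under high stretch Etv4 rose by 2.55 (SE 0.47, edgeR adjusted p = 0.0289), Etv5 by 1.26 (SE 0.26, adjusted p = 0.0438) and Dusp4, a nuclear ERK phosphatase, by 1.23 (SE 0.21, adjusted p = 0.0233). Etv4 went from 5.30 ± 3.96 to 18.1 ± 10.7 CPM in experiment 1, where it was not called, and from 8.48 ± 6.37 to 48.8 ± 3.59 CPM in experiment 2. Without unstretched replicate 3, 9 of the 14 were called higher (3.42% of all genes), among them Dusp6 (1.27) and Dusp2 (1.36), which were named after their values were seen. The 3 calls under high stretch became 0 without high-stretch replicate 1 or 3 or unstretched replicate 1, and 1 without high-stretch replicate 2. The 1 call under low stretch was lost without unstretched replicate 1 or 3, and 2 genes were called without low-stretch replicate 5.

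The EGR corepressors Nab1 and Nab2 lay below 0 in both stretch comparisons. Nab1 fell by 0.58 (SE 0.13, edgeR adjusted p = 0.0256) under low stretch, and Nab2 was at -0.61 (SE 0.16, adjusted p = 0.0566). Under high stretch Nab1 was at -0.88 (SE 0.37, edgeR adjusted p = 0.329) and Nab2 at -0.60 (SE 0.21, adjusted p = 0.215). Without unstretched replicate 3 Nab2 fell by 0.74 (edgeR adjusted p = 0.0243) and Nab1, at -0.44, was not called. The low-stretch call of Nab1 was lost without low-stretch replicate 1, 2 or 4 or unstretched replicate 1 or 3. Of 17 upstream factors (SRF, its ternary complex and MRTF partners, CREB family), Crem rose under low stretch by 0.75 (SE 0.12, edgeR adjusted p = 0.00838) and Elk3 under high stretch by 1.14 (SE 0.21, adjusted p = 0.0289). The other 16 in each comparison were not called, and the list medians were both 0.07. Elk3 (1.28, edgeR adjusted p = 0.00496) was again the 1 call without unstretched replicate 3 of experiment 2, with a median of 0.41, and its call was lost without high-stretch replicate 1 or 3 or unstretched replicate 1.

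Cytoskeletal targets of SRF and MRTF are also driven through CArG boxes. Of 12, 3 rose under low stretch and none fell: Myl9 by 0.96 (SE 0.23, edgeR adjusted p = 0.0387), Tpm1 by 0.73 (SE 0.11, adjusted p = 0.00628) and Tpm2 by 0.60 (SE 0.14, adjusted p = 0.0349). Under high stretch none of the 12 was called with all cultures (median 0.60), and Tpm1 (0.81, edgeR adjusted p = 0.0141) and Myl9 (0.81, adjusted p = 0.0484) rose without unstretched replicate 3 (median 0.45), while 4 of the 12 were called without unstretched replicate 2. The 3 low-stretch calls became 1 without low-stretch replicate 1, 2, 3 or 4 or any 1 of the unstretched cultures, and 6 without low-stretch replicate 5. Of 9 genes of the integrated stress response, which also induces Atf3, 1 fell under low stretch (Sesn2, by 0.40, SE 0.09, edgeR adjusted p = 0.0309) and none was called under high stretch, with or without that culture. The Sesn2 call stands in a list whose count was 0 without low-stretch replicate 2, 4 or 6 or any 1 of the unstretched cultures, and 2 without low-stretch replicate 3. None of 8 heat shock genes was called in either comparison with all cultures, and 1, Hspb1 (1.28, edgeR adjusted p = 0.0277, named after its value was seen), rose without unstretched replicate 3. Also 1 of the 8 was called without unstretched replicate 2 of experiment 2, and 1 under low stretch without low-stretch replicate 5. The percentage of all genes called was 5.45% for low and 3.47% for high stretch, and the counts of these last lists stand beside it.

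**Figure D5:**
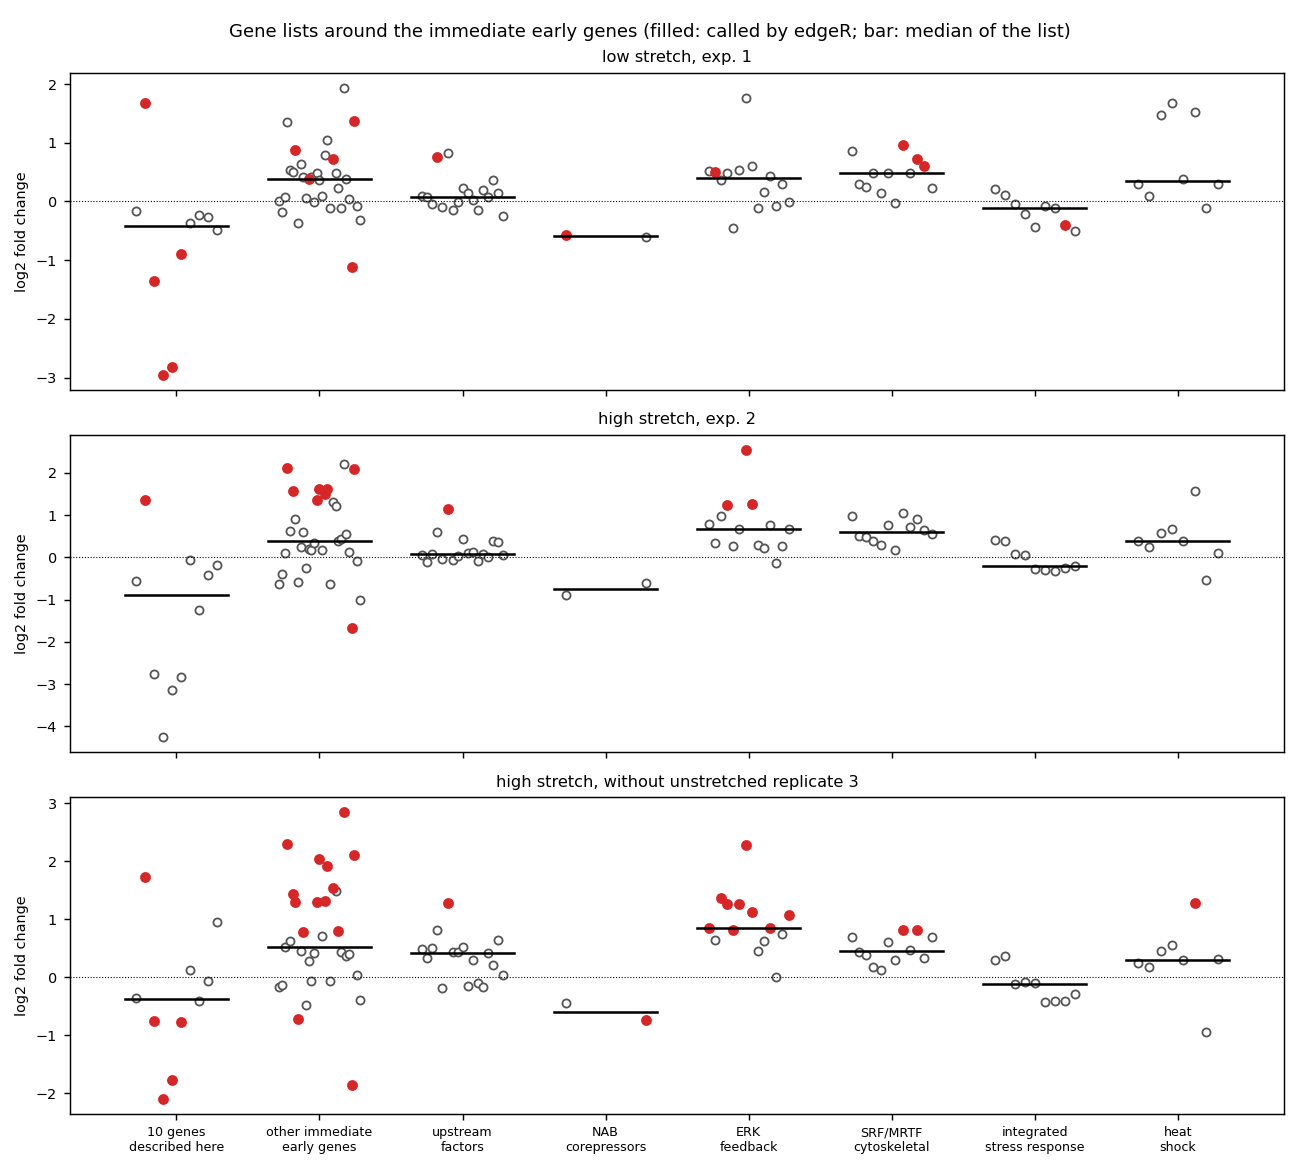
Log2 fold change of each gene tested in the 10-gene set and 7 related lists (x axis), for low stretch, high stretch and high stretch without unstretched replicate 3; filled points were called by edgeR and bars are list medians. The 10 genes have medians of -0.43, -0.90 and -0.38, and the other immediate early genes 0.38, 0.38 and 0.52.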

How the data were processed

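Poly(A) RNA of 15 cultures of the SVI podocyte line was sequenced with a stranded kit, per the labels' protocols. The authors deposited raw counts per Ensembl gene, and TPM values per transcript in a separate table. The submitters' processing notes name STAR 2.7.5c, featureCounts, Subread 2.0.0, DESeq2 1.38.3, Salmon 1.9.0 and build mm39, without saying which step used which. TPM keeps no depth, and the depth behind it is unknown.

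Samples were grouped by title. Symbols came from a table of gene names (52083 of 55416 identifiers matched). The 10 genes, the lists and the alternatives were chosen with earlier results of these data known. Each comparison used only its own groups, edgeR 4.0.16 (R 4.3.3) with filterByExpr, TMM factors and the quasi-likelihood test, and Benjamini-Hochberg adjustment over all genes tested. A gene is called at an adjusted p under 0.05. The SE is the log2 fold change divided by the square root of its F value. For the difference of the 2 stretch effects, all 15 cultures entered the fit. The scripts were tested on simulated counts. CPM values in the text use TMM factors over all 15 cultures, and log2 CPM used a prior count of 2. Named genes are the 10, every list gene called in either stretch comparison, and the 5 genes most like the mean profile. Where none of a list was called, its genes are given as counts only. TPM was summed per gene over the transcripts that GENCODE M21 assigns to it. Promoters came from RefSeq (GRCm38.p6), a build other than that of the counts. DESeq2 1.42.0, RLE factors, a filter of none or of a mean count of at least 100, blocks, a fit of all 15 cultures and leaving out each culture were tried as alternatives.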

Additional observations from a re-analysis of the deposited data

Results flagged for a closer look

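Of 32 genes whose 6 low-stretch cultures were checked, 1 had a culture far from the others: Nr4a2, an orphan receptor gene related to Nr4a1, was at 18.2 CPM in low-stretch replicate 1, with the next highest culture at 13.4 CPM. The gap took 0.658 of the range of the group. Chance marks about 1 group in 20 by this criterion. Groups of 3 cannot be checked in this way, so the 2 high unstretched cultures described above do not appear here.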

How the results depend on the processing

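The 5 calls among the 10 genes under low stretch numbered 5 as well with DESeq2, RLE factors, no filter, a mean count of at least 100 and the plate run as a block, were 4 without run 2, and became 3 when all 15 cultures shared one fit. Leaving out each culture gave 4 to 5. Under high stretch the main count of 1 became 2 with DESeq2 (whose adjusted p was NA for Egr1, Egr2 and Fos), 5 with no filter, 0 with a mean count of at least 100 and 5 with all 15 cultures in one fit. Leaving out each culture gave 0 to 5. Between the unstretched groups the count was 5, and 3 to 7 when each culture was left out. The share of all genes called is not set beside these counts, which show only how they moved with the setting. The difference of the stretch effects called 0 of the 10 in every alternative, and only the plate run block called any gene at all (3). When replicate numbers entered as a block, calls were 4 under low stretch, 6 under high stretch and 5 between the unstretched groups. The numbers are not shown to pair cultures: same-numbered cultures correlated at 0.379, -0.147 and -0.451 in the low-stretch comparison and -0.258, 0.595 and 0.334 in the high-stretch one. In experiment 2 a number is also a plate run. In experiment 1, cultures of the same plate run correlated at 0.415 on average and those of different runs at -0.302. Group means were subtracted first, which by itself lowers correlations within a group. All pairs of unstretched cultures lie in different runs, so nothing about the runs is read from this difference. Of 650 fold changes of single genes under the alternatives, 613 moved by less than the spread between replicates (1 SD), 37 by more, and 0 called values reversed. Only values called in the main fit could count as reversed, and some uncalled values did change sign. Where unstretched replicate 3 of experiment 2 was part of a comparison, it widened this SD for most of the 10 genes. The causes were not tested. Egr3 and Egr2 had the lowest counts in the stretched groups.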
